A study of Mus musculus with 10 samples.

Results

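The cytosolic ribosomal protein genes described here are the protein-coding rows of the count table whose symbol is Rpl or Rps followed by a number, with or without a closing a, x, y or l, together with Rplp0, Rplp1, Rplp2 and Rpsa. The Rps6k kinases were left out. By this rule 80 of the 52636 rows were members, 31 of the small (40S) subunit and 49 of the large (60S) subunit. The rule used names only, and no measured value. Some ribosomal protein genes fall outside it because of how they are named (such as Fau, Rps3a1 and Rack1), and they are given separately below.

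Ribosomes translate mRNA into protein, and each carries most of these proteins in a single copy on its ribosomal RNA core, so cells make them in similar amounts. Their mRNAs are among the most abundant in dividing cells, and many begin with a run of pyrimidines through which mTORC1, a growth-factor-sensing kinase complex, controls their translation. MYC and RNA polymerase I act on the same supply line, the former on transcription of the protein genes and the latter on the ribosomal RNA. A few members have duties outside the ribosome, such as Rpl5 and Rpl11, which bind Mdm2 and thereby stabilise p53.

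RNA was sequenced from 10 mouse melanoma tumours. All 10 carried BrafCA, a conditional allele that yields the activated kinase after recombination, and Cdkn2af/f, the floxed tumour suppressor locus. The 6 Arf6Q67L tumours also carried Arf6Q67L, which encodes an ARF6 GTPase locked in the active, GTP-bound state, and the 4 control tumours did not. The series' design is this 1 comparison. The labels used here give no age, sex, litter, Cre driver or batch, and they do not say whether each tumour came from its own animal. Each title opens with a number of its own, whose meaning is not stated. P-values therefore measure the spread between these tumours. Library numbers ran in 1 block per genotype, so order of libraries cannot be told apart from genotype.

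Library totals lay between 28635414 and 40869091 counts, so that 3 counts, the most a count of 0 allows, came to 0.0761 to 0.106 CPM, the count scaled to the library's size. These floors, like all statements on depth here, cover counting error only. Arf6 itself averaged 104 ± 21.3 CPM over the Arf6Q67L group (SD, n = 6) and 93.0 ± 17.4 CPM over the control group (SD, n = 4), with an adjusted p of 0.758 in edgeR's quasi-likelihood test, and these rows do not tell the mutant allele from the endogenous one. Of the defining pigment-cell markers, Tyr, Dct and Oca2 had no counts in any tumour, and Mitf lay between 11.1 and 26.1 CPM. The tissue is therefore called melanoma after its label only.

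Arf6Q67L tumours 1 and 2 stood apart from the other 8 in these genes. The members together took up 3.83%, 4.52%, 5.63%, 5.31%, 6.07% and 5.58% of the library's counts in Arf6Q67L tumours 1 to 6. In controls 1 to 4 they took up 5.85%, 5.23%, 5.77% and 5.89%. Tumours 1 and 2 of the Arf6Q67L group were the lowest of all 10, while the other 4 of that group ranged across and beyond the controls. The sample titles of these 2 tumours open with the numbers 4893 and 4894, those of the other 4 Arf6Q67L tumours with 5681 to 5685 and those of the controls with 5610 to 7285, so the low pair also stands apart by label. Whether that number marks a cohort or batch is not stated, and its part in the low levels cannot be told apart from the tumours themselves. The mean share was 5.16 ± 0.826% (SD, n = 6) with Arf6Q67L and 5.68 ± 0.306% (SD, n = 4) without it. Without tumours 1 and 2 the Arf6Q67L mean was 5.65 ± 0.316% (SD, n = 4), which differed from the control mean by -0.038 percentage points. Of the 79 members that could be tested, 69 had Arf6Q67L tumours 1 and 2 as their 2 lowest tumours, and 68 were lowest of all in tumour 1.

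**Figure D1:**
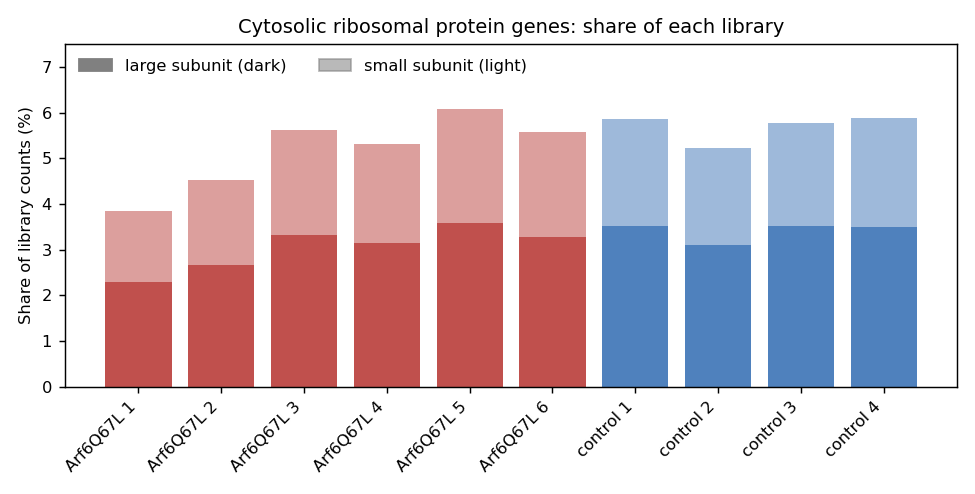
Share of each library's counts (%, vertical axis) on the large-subunit members (dark) and small-subunit members (light, stacked) in 6 Arf6Q67L tumours (red) and 4 control tumours (blue). Arf6Q67L tumours 1 and 2, at 3.83% and 4.52%, are the lowest bars.

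The library totals of these 2 tumours, 37614470 and 35298786 counts, lay inside the range of the others. The share on mitochondrial ribosomal protein genes, which serve the separate ribosomes of mitochondria, was 0.225% and 0.262% there against 0.222 to 0.293% in the other 8 tumours. The summed CPM of 12 T cell markers was 17.2 and 29.3 in tumours 1 and 2, against 24.2 to 120 in the other Arf6Q67L tumours and 35.1 to 388 in controls, with none of the 12 at 0 in all tumours. The summed CPM of 14 skeletal muscle markers was 21.1 in tumour 1 and 671 in tumour 2, against 5.25 to 1475 in controls. The summed CPM of 8 mast cell markers was 60.4 to 1049 in Arf6Q67L tumours (69.2 and 487 in tumours 1 and 2) and 14.8 to 94.8 in controls, and 7 of the 8 were higher at an unadjusted p under 0.05. Endothelial markers were lower at that p in 7 of 10 (median log2 fold change -0.88), macrophage markers in 7 of 12 (-0.83) and adipocyte markers in 3 of 6 tested (-2.57). Another 2 macrophage markers were higher at that p, Mertk (0.73) and Cd163 (1.86). Over all genes 7.05% were lower and 4.65% higher at that p.

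The 10 immediate-early and heat-shock genes that respond to sample handling were also lower for the most part, with 9 of 10 negative, a median log2 fold change of -0.85 (-0.27 without control 4) and 3 lower at an unadjusted p under 0.05. Atf3, a stress-induced transcription factor, had -1.96 (adjusted p = 0.267 in edgeR's quasi-likelihood test, 0.0158 in DESeq2). Their summed CPM was 505 and 491 in Arf6Q67L tumours 1 and 2, 388 to 802 in the other Arf6Q67L tumours and 528 to 1353 in controls. The part of sample handling and of other cell types in the members' levels was not tested here. Fits with T cell and muscle scores as terms are given below as descriptions only. In RNA from whole tumours, fewer cells of a type and less RNA per cell cannot be told apart.

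The comparison of Arf6Q67L with control tumours asked which genes differ with active ARF6. No member passed the threshold, an adjusted p under 0.05 in edgeR's quasi-likelihood test, and among all 17286 genes tested 0 passed (0.0%). At an unadjusted p under 0.05, 6 members were lower (7.59% of the 79 tested, against 7.05% of all genes) and 1 was higher (1.27%, against 4.65% of all genes). The share of lower members was thus near that of the transcriptome. No member had groups that did not overlap, where 1.28% of all genes were lower and 1.15% higher in every Arf6Q67L tumour than in every control (2.44% in all). DESeq2 called 1 member, Rpl35a, as lower. It called 2.39% of all genes tested, and those called lower made up 1.42% of all genes tested. The limma-voom fit called none of the members and 2 of all genes.

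The fitted fold changes nevertheless lay mostly on one side. Of the 79 members, 76 (96.2%) had a negative log2 fold change, against 50.3% of all genes. Their median was -0.17, a level 11.1% lower in Arf6Q67L tumours, against -0.00 over all genes, with quartiles of -0.27 and -0.09. The small subunit had a median of -0.17 with 30 of 31 members negative, and the large subunit a median of -0.16 with 46 of 48 negative. The typical standard error of a member, 0.15, was close to this median. Members rise and fall together between tumours, so their signs are not independent observations: the median correlation of a member's log2 CPM with the mean of the other members was 0.905 over the 10 tumours, and 43 members exceeded 0.9. These points share libraries and depth.

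The count of negative signs was smaller without the 2 low tumours. These were picked for low levels of the same members, so leaving them out had to raise the fold changes. The fit therefore cannot decide what the signs rest on. With Arf6Q67L tumours 1 and 2 left out, a setting chosen after seeing the data, the median was -0.03 against 0.01 over all genes, 50 of 79 members were negative against 48.8% of all genes, and 1 was lower at an unadjusted p under 0.05, against 3.57% of all genes. Without tumour 1 alone the median was -0.10. With the T cell marker score as a term the median was -0.10 with 67 members negative, and 1 member was lower at an unadjusted p under 0.05, against 3.38% of all genes. All 12 T cell markers had negative log2 fold changes themselves, with a median of -2.07. That score thus goes with genotype, and the fit cannot tell the 2 apart. With the skeletal muscle marker score as a term the members' median was -0.27 with 77 negative, and 19 of 79 members were lower at an unadjusted p under 0.05, against 9.19% of all genes in that fit.

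**Figure D2:**
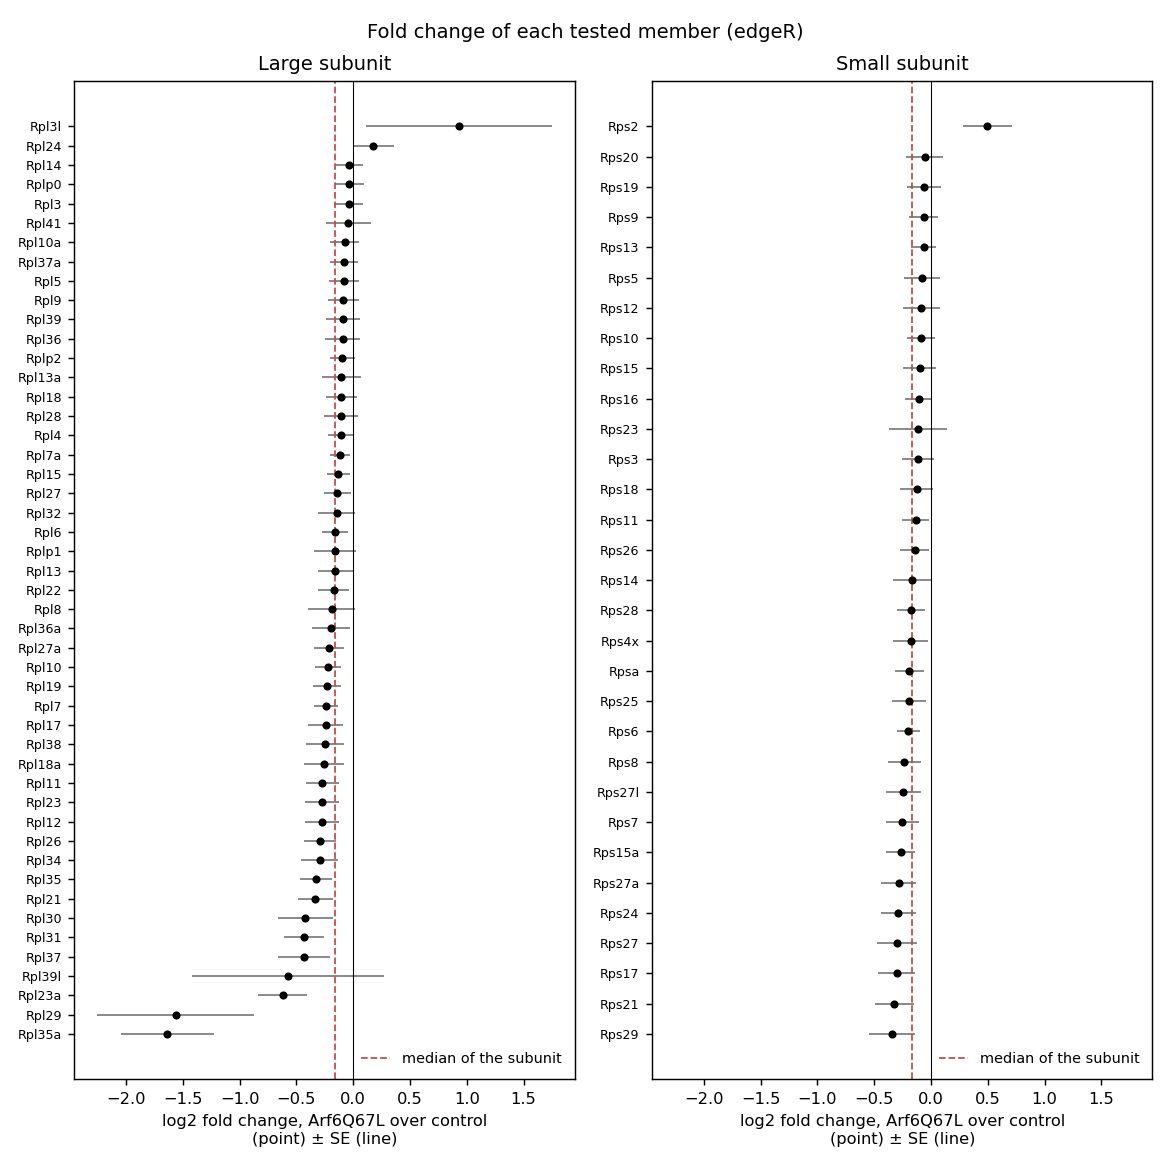
Log2 fold change of Arf6Q67L over control tumours (horizontal axis, point, with its standard error as a line) for each of the 48 tested large-subunit and 31 small-subunit members, with the subunit's median dashed. Of the 79 points 74 lie between -0.5 and 0.5, and Rpl35a, Rpl29, Rpl23a and Rpl39l lie below and Rpl3l above that range.

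The balance of the subunits differed little. The ratio of summed small-subunit to large-subunit counts was 0.693 ± 0.00933 (SD, n = 6) in Arf6Q67L tumours and 0.670 ± 0.0219 (SD, n = 4) in controls. It ran from 0.682 to 0.707 in the former and from 0.644 to 0.689 in the latter, so the groups overlapped. The 2 low tumours had ratios of 0.682 and 0.701, so that both subunits were low there together. The sums include some uneven members described below. Of these, Rpl29, Rpl35a and Rpl23a of the large subunit had lower means with Arf6Q67L, and Rps2 of the small subunit a higher one. A ratio without them was not computed.

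Levels between members can be compared only per length. Per kilobase of annotated exon, the most abundant were Rplp1 at 1597, Rplp0 at 1175 and Rps15 at 1059 CPM per kilobase, averaged over all tumours. Rplp0 and Rplp1 belong to the stalk that recruits elongation factors, and Rps15 sits in the head of the small subunit. The lowest with any counts were Rpl3l at 0.46, Rpl39l at 0.947 and Rpl24 at 1.71 CPM per kilobase. Rpl3l and Rpl39l are tissue-restricted duplicates, whereas Rpl24 encodes a core protein at the bridge between the subunits. The order at the top depends on the length used: per kilobase of 1 coding transcript it was Rps12 at 1709, Rps4x at 1701 and Rplp1 at 1597, with Rplp0 at 1435 and Rps15 at 1335. Rps12 and Rps4x are named here after their values were seen. Rpl24 shared 47.0% of its exon bases with Gm28037, a row with an identical coding stretch and no counts in any tumour, and how reads shared by both rows were counted is not given in the sources used here. Its value of 1.85 ± 0.206 CPM with Arf6Q67L (SD, n = 6) and 1.64 ± 0.189 CPM in controls (SD, n = 4) is therefore uncertain.

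Promoter sequences show the pyrimidine run by which these mRNAs are known. The RefSeq promoter table (GRCm38.p6) held 60 of the members, and a tract was counted where a C within 5 bases of an annotated start was followed by at least 4 further C or T bases. By this definition 28 of 60 members had one (46.7%), against 24.6% of 69 mitochondrial ribosomal protein genes and 21.8% of 16478 protein-coding genes. The lines below give 30 bases around the start of Rps6, the kinase substrate read out as an mTORC1 marker, and of Rplp2 of the stalk. They also show 3 members at low p (Rpl35, Rpl31 and Rpl35a), Rps2, whose tract is short, and Rplp0, which has none by this definition. Capitals mark the tract, and each line runs 5′ to 3′ on the gene's strand.
Rps6 (chr4:86857348-86857377, minus strand): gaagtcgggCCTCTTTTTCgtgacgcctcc
Rplp2 (chr7:141447641-141447670, plus strand): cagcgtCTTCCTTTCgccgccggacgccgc
Rpl35 (chr2:39005112-39005141, minus strand): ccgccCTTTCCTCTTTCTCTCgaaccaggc
Rpl31 (chr1:39367841-39367870, plus strand): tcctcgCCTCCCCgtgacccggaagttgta
Rpl35a (chr16:33056472-33056501, plus strand): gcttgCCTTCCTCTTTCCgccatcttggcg
Rps2 (chr17:24720053-24720082, plus strand): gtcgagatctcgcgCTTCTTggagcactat
Rplp0 (chr5:115559457-115559486, plus strand): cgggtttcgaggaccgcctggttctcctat

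Rpl35 had a run of 16 pyrimidines, Rpl35a 13 (at 1 of its 3 annotated starts) and Rps6 10, while the Rplp0 window held none by this definition. A short pyrimidine run in the Rplp0 line lies farther from the annotated start and was not counted, so the counts depend on the annotated starts. The 28 members with a tract had a median log2 fold change of -0.17 with 27 negative, and the 31 tested members of the table without one had -0.14 with 29 negative. In the 300 bases from 250 before to 50 after the start, searched on both strands, the ETS-type motif CCGGAA stood in 55% of members, 58.0% of mitochondrial ribosomal protein genes and 21.5% of all promoters. The YY1-type motif ATGGCG stood in 31.7%, 27.5% and 12.7% of the same sets, the SP-type motif GGGCGG in 60%, 49.3% and 51.1%, and the TATA box TATAAA in 10%, 7.25% and 14.3%. CCGGAA and ATGGCG were thus more frequent in both kinds of ribosomal protein promoter than in all promoters, and a match is a description of letters, not a bound site.

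The stalk proteins Rplp0, Rplp1 and Rplp2 were at similar levels in both groups. Rplp0 lay at 1614, 1965 and 2293 CPM (lowest, median and highest of 6 Arf6Q67L tumours) and at 2178, 2004, 1979 and 1753 CPM in controls 1 to 4. On the log2 scale the fold change was -0.04 ± 0.13 (SE), smaller than the spread in either group, and it was positive in several alternative fits. The log2 fold change of Rplp1 was -0.16 ± 0.19 (SE), that of Rplp2 -0.10 ± 0.11 (SE). All 3 were lowest in Arf6Q67L tumour 1, at 1614, 476 and 310 CPM, and their groups overlapped.

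Rpsa, the small-subunit protein related to the laminin receptor, lay at 1332, 1730 and 2100 CPM (lowest, median and highest) with Arf6Q67L and at 1939, 1868, 1999 and 2026 CPM without it, and its fold change was -0.19 ± 0.13 (log2, SE). Rps6, phosphorylated by S6 kinase downstream of mTORC1, lay at 636, 715 and 836 CPM with Arf6Q67L and at 889, 748, 857 and 843 CPM in controls. The fold change on the log2 scale was -0.20 ± 0.10 (SE, adjusted p = 0.481 in edgeR's quasi-likelihood test). In both genes 4 of 6 Arf6Q67L tumours lay below every control and the others within or above the control range. Rps19, the gene most often mutated in the inherited anaemia Diamond-Blackfan anaemia, differed by -0.06 ± 0.15 (log2 fold change, SE), and Rps14, lost in a form of myelodysplastic syndrome, by -0.17 ± 0.17 (SE). Rps15 had -0.10 ± 0.15 and Rps27, a zinc-finger protein of the small subunit, -0.30 ± 0.18 (both SE). None of these small-subunit genes had an adjusted p under 0.48.

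Rps2, which lines the channel where mRNA enters the ribosome, was the 1 member higher at an unadjusted p under 0.05. It lay at 788, 823, 438, 453, 516 and 452 CPM in Arf6Q67L tumours 1 to 6 and at 468, 354, 408 and 410 CPM in controls 1 to 4. Only Arf6Q67L tumours 1, 2 and 5 exceeded every control, tumours 1 and 2 by the widest margin. The log2 fold change was 0.49 ± 0.22 (SE, unadjusted p = 0.0441, adjusted p = 0.415 in edgeR's quasi-likelihood test), and it was 0.19 without tumours 1 and 2 and 0.23 with the T cell score as a term. Its correlation with the mean of the other members was -0.820 over 10 tumours, the lowest of all.

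The pseudogene row Rps2-ps10, 99.43% identical to the Rps2 coding sequence, ran the other way in those 2 tumours. It lay at 169, 160, 499, 399, 375 and 353 CPM in Arf6Q67L tumours 1 to 6 and at 392, 367, 380 and 318 CPM in controls. The sum of both rows lay at 957, 983, 937, 852, 891 and 805 CPM in Arf6Q67L tumours and at 860, 721, 788 and 729 CPM in controls. Tumours 1 and 2 were thus the highest in Rps2 and the lowest in its copy, while the sum varied 1.36-fold over all 10 tumours against 2.32-fold for Rps2 and 3.12-fold for the copy alone. Because the 2 rows are nearly identical, the counting could split reads between them, and the Rps2 value is uncertain. Counted with all its copies, an added setting chosen after seeing the data, Rps2 had a log2 fold change of 0.22 (unadjusted p = 0.0384, adjusted p = 0.411 in edgeR's quasi-likelihood test).

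Rps23, a protein of the decoding centre, lay at 475, 591, 1380, 687, 812 and 728 CPM in Arf6Q67L tumours 1 to 6 and at 849, 787, 870 and 862 CPM in controls. It is named here after its values were seen, because tumour 3 had the highest level by far. Its log2 fold change was -0.11 ± 0.25 (SE), with -0.35 without tumour 3 and 0.11 without tumours 1 and 2, and 4 of 6 Arf6Q67L tumours lay below every control.

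Other large-subunit members named as textbook genes, parents of a paralogue or close followers of the family ranged from -0.04 to -0.29. Rpl3, next to the peptidyl transferase centre, differed by -0.04 ± 0.13 (log2 fold change, SE), and Rpl4, which reaches into the exit tunnel, by -0.11 ± 0.11 (SE). Rpl10, which joins late in maturation, had -0.22 ± 0.12, Rpl12 at the base of the stalk -0.28 ± 0.15 and Rpl22 -0.17 ± 0.14 (all SE). Rpl5 and Rpl11, which enter the ribosome together with 5S ribosomal RNA, had -0.08 ± 0.13 and -0.27 ± 0.14 (both SE). Rpl26, a protein near the tunnel exit, had -0.29 ± 0.14 (SE). Rpl12, Rpl26 and Rpl22 followed the other members most closely, with correlations of 0.980, 0.975 and 0.975 over 10 tumours, and adjusted p-values of the 8 genes of this paragraph lay between 0.459 and 0.936 in edgeR's quasi-likelihood test.

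Rpl23a, Rpl31 and Rpl35 sit around the opening of the exit tunnel, where the nascent chain leaves the ribosome. Rpl23a lay at 240, 231, 488, 303, 325 and 287 CPM in Arf6Q67L tumours 1 to 6 and at 357, 445, 540 and 582 CPM in controls. All Arf6Q67L tumours but tumour 3 were below every control, and tumour 3 was above controls 1 and 2. The log2 fold change was -0.62 ± 0.22 (SE, unadjusted p = 0.0171, adjusted p = 0.345 in edgeR's quasi-likelihood test), and Tlcd1 and a small nucleolar RNA overlap 62.3% of its exon bases.

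Rpl31 lay at 525, 696 and 957 CPM (lowest, median and highest of 6 Arf6Q67L tumours) and at 878, 892, 995 and 1099 CPM in controls. The log2 fold change was -0.43 ± 0.17 (SE, adjusted p = 0.387 in edgeR's quasi-likelihood test), and only Arf6Q67L tumour 5 lay inside the control range. Rpl35 lay at 355, 470 and 572 CPM with Arf6Q67L and at 552, 523, 687 and 618 CPM in controls, and its log2 fold change was -0.33 ± 0.14 (SE). Exons of Arpc5l and Wdr38 cover 66.2% of its exon bases. Rpl7, a core protein of the large subunit, lay at 1172, 1445 and 1529 CPM with Arf6Q67L and at 1694, 1509, 1648 and 1656 CPM in controls, and its log2 fold change of -0.24 ± 0.11 (SE) had an unadjusted p of 0.04998 and an adjusted p of 0.427 in the same fit. Without tumours 1 and 2 the log2 fold changes of Rpl23a, Rpl31, Rpl35 and Rpl7 were -0.45, -0.26, -0.20 and -0.13.

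Rpl35a (chr16:33056453-33060189, plus strand), a large-subunit protein mutated in some families with Diamond-Blackfan anaemia, had the lowest p of all members. It lay at 69.1, 202, 298, 98.7, 94.5 and 88.4 CPM in Arf6Q67L tumours 1 to 6 and at 474, 279, 488 and 522 CPM in controls 1 to 4. All Arf6Q67L tumours but tumour 3 lay below every control, and tumour 3 was just above control 2. The log2 fold change was -1.64 ± 0.41 (SE, unadjusted p = 0.00246, adjusted p = 0.248 in edgeR's quasi-likelihood test, adjusted p = 0.0127 in DESeq2). Without tumours 1 and 2 it was -1.6 (adjusted p = 0.594 in edgeR's quasi-likelihood test), so its size did not rest on the 2 low tumours. All 14 near-identical copies together held 0.496% as many counts as the gene itself, and no annotated exon of another gene overlapped it.

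Rpl29 (chr9:106429454-106431568, plus strand), a small peripheral protein of the large subunit, split the tumours in a different way. It lay at 43.9, 48.0, 43.4, 269, 348 and 51.6 CPM in Arf6Q67L tumours 1 to 6 and at 566, 232, 287 and 498 CPM in controls 1 to 4. Arf6Q67L tumours 1, 2, 3 and 6 lay far below all others, whereas tumours 4 and 5 lay between controls 2 and 4, so that the 10 tumours spanned 13.0-fold. The log2 fold change was -1.56 ± 0.69 (SE, unadjusted p = 0.0471, adjusted p = 0.423 in edgeR's quasi-likelihood test), and within groups its log2 CPM had an SD of 1.2 against a median of 0.23 over the members. Without tumours 1 and 2 it was -1.15 (adjusted p = 0.791 in the same fit), and with the muscle score as a term it was -2.58. Its 28 copies, counted as whole rows, together held 27.1% as many counts as the gene itself. The one with the most was an annotated stretch of Uimc1 that is 99.76% identical to Rpl29. The Uimc1 row lay at 43.3 to 60.3 CPM over all 10 tumours, near the Rpl29 level of the 4 low ones. It was also at 47.4 and 54.9 CPM in controls 1 and 4, where Rpl29 was highest. The counting could split reads between these rows, so the Rpl29 value is uncertain. The sum of Rpl29 and its pseudogene copy Gm8210 still varied 9.97-fold over all 10 tumours. With copies other than Uimc1 added, a setting chosen after seeing the data, the Rpl29 log2 fold change was -1.42. Its unadjusted p was 0.0366 and its adjusted p 0.405 in edgeR's quasi-likelihood test.

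**Figure D3:**
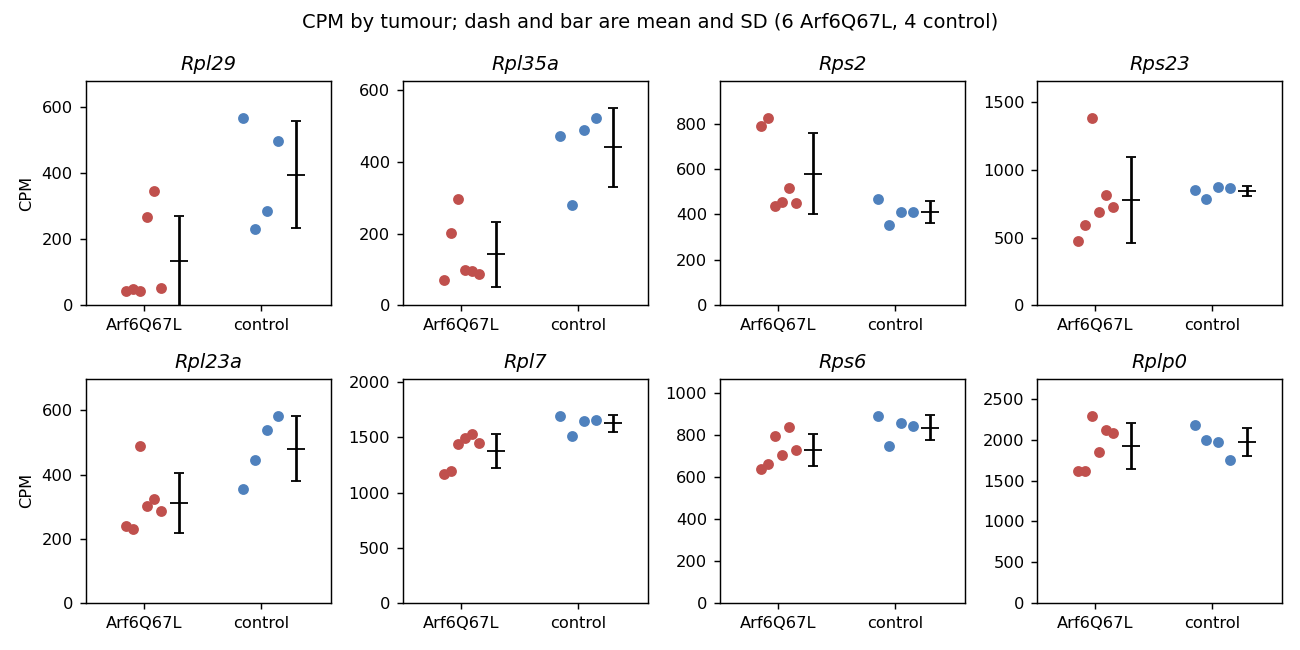
CPM (vertical axis, from 0) of 8 members in 6 Arf6Q67L tumours (red) and 4 control tumours (blue), 1 point per tumour, with the mean and SD of each group in black. Rpl29 is below 52 CPM in 4 Arf6Q67L tumours. Rpl35a is below 300 CPM in all 6 Arf6Q67L tumours and in control 2. Rps2 is high in 2 and Rps23 in 1 of the Arf6Q67L tumours.

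Copies matter for these genes because most have many of them in the genome. At 95% identity over at least 80% of the coding sequence, 74 members had at least 1 copy elsewhere, 23 had an identical one, and 519 of the 545 copies were annotated as pseudogenes. Rpl21 had the most, 55. The copies annotated as pseudogenes together held 0.0935 ± 0.0194% of counts (SD, n = 6) with Arf6Q67L and 0.0943 ± 0.00608% (SD, n = 4) in controls. Copies in other rows, such as Uimc1, are not in this share. Exons of 36 members also overlapped another gene. Adding the copies to their member, apart from those in rows of named genes such as Uimc1, left 0 members past the threshold. The median log2 fold change was then -0.17.

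The copy of Rpl29 named Gm8210, which differs from it at 3 of 480 coding bases, lay at 12.9, 11.8, 19.1, 8.46, 9.94 and 15.3 CPM in Arf6Q67L tumours 1 to 6. In controls 1 to 4 it lay at 0.0507, 9.24, 13.1 and 0 CPM, the last allowing up to 0.101 CPM. The 2 controls with the most Rpl29 thus had at most a trace of the copy, and the 4 Arf6Q67L tumours with the least Rpl29 were 4 of the 5 highest in the copy. The copy of Rplp0 named Gm8730, which differs at 12 of 951 coding bases, lay at 66.2, 78.4, 6.26, 3.70, 4.27 and 4.69 CPM in Arf6Q67L tumours and at 95.9, 2.01, 100 and 85.6 CPM in controls. It split the tumours into 5 above 66 CPM, with Arf6Q67L tumours 1 and 2 among them, and 5 below 6.3 CPM. Added to Rplp0 it changed the sum little, since the gene itself had 1614 to 2293 CPM.

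The stretches below show how little separates the Rpl29 copy from its gene, with the differing base in capitals and positions counted from 1 at the first coding base. They are reference transcripts of the GENCODE annotation of GRCm38, in the direction of the coding sequence. Between coding bases 57 and 86 Rpl29 and Gm8210 differ by C72A.
Rpl29: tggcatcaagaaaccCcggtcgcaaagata
Gm8210: tggcatcaagaaaccAcggtcgcaaagata

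**Figure D4:**
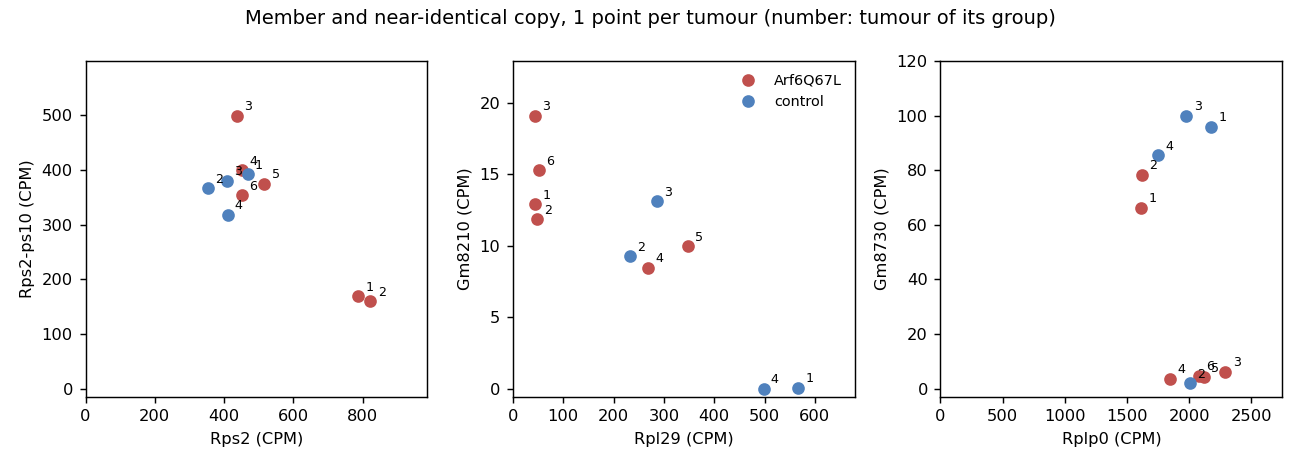
CPM of a near-identical copy (vertical axis) against CPM of the member (horizontal axis) for Rps2 with Rps2-ps10, Rpl29 with Gm8210 and Rplp0 with Gm8730, 1 point per tumour, red for Arf6Q67L and blue for control, numbered within the group. Arf6Q67L tumours 1 and 2 lie at the lower right for Rps2, controls 1 and 4 at the lower right for Rpl29, and Gm8730 falls into 5 tumours above 66 CPM and 5 below 6.3 CPM.

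The tissue-restricted paralogues Rpl10l, Rpl39l and Rpl3l were low, unlike Rps27l. Rpl10l, the testis form of Rpl10, had no counts in any tumour, which allows at most 0.0761 to 0.106 CPM. Rpl39l, a germ-cell form of Rpl39, lay at 0.731, 0, 1.09, 1.07, 0.0781 and 1.0 CPM in Arf6Q67L tumours, the 0 allowing up to 0.0827 CPM, and at 0.963, 1.57, 0.599 and 0.772 CPM in controls. Rps27l, a p53-induced relative of Rps27, lay at 87.3, 115 and 137 CPM (lowest, median and highest) with Arf6Q67L and at 120, 126, 126 and 158 CPM in controls.

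Rpl3l, which replaces Rpl3 in striated muscle, lay at 0.162, 1.32, 0.798, 1.6, 1.41 and 0.315 CPM in Arf6Q67L tumours 1 to 6 and at 0.380, 0.0943, 0.141 and 1.34 CPM in controls. The groups overlapped throughout, and the log2 fold change of 0.93 ± 0.82 (SE, adjusted p = 0.705 in edgeR's quasi-likelihood test) became -0.09 with the muscle marker score as a term. The value moved widely in other fits too, to 2.14 without control 4, 1.98 with limma-voom, 1.77 with the T cell score, and 0.59 without control 2, none with an adjusted p under 0.05. The level followed the skeletal muscle marker score over the 10 tumours, with Pearson's r = 0.971 (permutation p = 6e-05) and Spearman's rho = 0.891 (permutation p = 0.00098). Without controls 2 and 3, the 2 tumours farthest from the median score, r was 0.959. This was the only such relation computed, within the 6 Arf6Q67L tumours r was 0.984, and the 4 controls are too few for a value of their own.

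**Figure D5:**
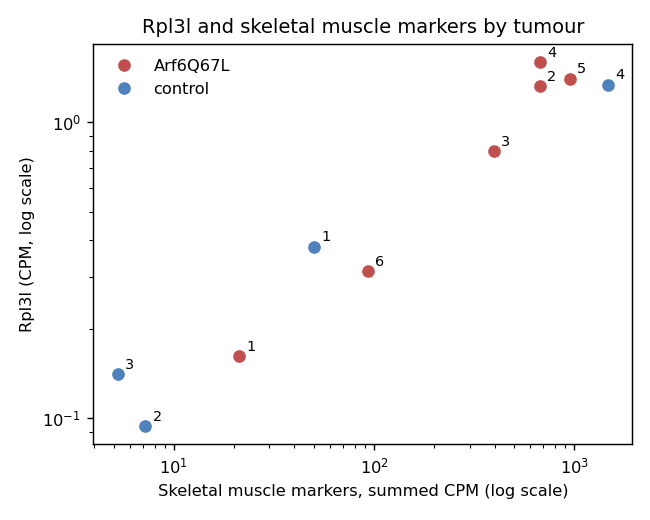
Rpl3l (CPM, vertical axis, log scale) against the summed CPM of skeletal muscle markers (horizontal axis, log scale), 1 point per tumour, red for 6 Arf6Q67L and blue for 4 control tumours, numbered within the group. The points rise together from control tumours 2 and 3 at the lower left to tumours with 671 CPM or more of muscle markers at the upper right.

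The ratio of a paralogue to its parent gene was compared for 7 pairs, on the scale of log2((paralogue CPM + 0.5)/(parent CPM + 0.5)), by an exact permutation test (two-sided, 210 splits) that cannot give a p below 0.00476. No pair had an adjusted p under 0.05. The lowest p was that of Rpl7l1, an assembly-factor relative of Rpl7, with a mean log2 ratio of -3.49 ± 0.203 (SD, n = 6) with Arf6Q67L and -3.83 ± 0.121 (SD, n = 4) in controls (exact permutation p = 0.0238, adjusted p = 0.167). Arf6Q67L tumours 1 and 2, low in the members, had the highest ratios of this pair, -3.27 and -3.21. The groups overlapped, with -3.73 in Arf6Q67L tumour 3 and -3.70 in control 2. The ratio of Rpl3l to Rpl3 differed by 0.61 (exact permutation p = 0.176, adjusted p = 0.617), and those of Rps27l, Rpl39l, Rps4l, Rpl22l1 and Rpl36al to their parents differed by -0.34 to 0.25 with adjusted p-values from 0.867 to 0.952 in the same exact test. Rpl36al, Rpl22l1 and Rpl7l1 are not members by the name rule. Rps4l fits the name pattern but is annotated as a pseudogene, not as protein-coding, so it is not a member either.

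Ribosomal protein genes and relatives that the name rule misses gave no call either. Of 7 such genes 0 passed the threshold and 5 were negative, and their median was -0.08 on the log2 scale. Fau, which encodes a small-subunit protein fused to a ubiquitin-like part, had -0.14 ± 0.16 (SE). Rps3a1, a small-subunit protein named here after its values were seen, had 367 CPM in control 1 and 673 to 995 CPM in the other 9 tumours. Mitochondrial ribosomal protein genes had a median of -0.06 with 51 of 77 negative and 0 past the threshold. At an unadjusted p under 0.05, 3 of the 77 were lower, against 7.05% of all genes. Their lower members Mrpl14, Mrpl13 and Mrpl32, of the mitochondrial large subunit, had log2 fold changes of -0.30, -0.42 and -0.25.

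The genes that supply, use and regulate ribosomes likewise gave 0 calls in edgeR. Elongation factors and other mRNAs with a pyrimidine tract had a median of -0.01 with 12 of 20 negative. Tpt1, a growth-related tract mRNA, was lower at an unadjusted p of 0.0351, with 4070 ± 715 CPM (SD, n = 6) with Arf6Q67L and 5107 ± 160 CPM without it (SD, n = 4), an adjusted p of 0.397 in edgeR's quasi-likelihood test. Initiation factors had a median of -0.00 with 14 of 28 negative. Eif4ebp2, a repressor of the cap-binding protein, was higher in Arf6Q67L tumours by 0.36 ± 0.11 (SE, adjusted p = 0.290), Eif4e, the cap-binding protein itself, by 0.21 ± 0.09 (SE, adjusted p = 0.413), and Eif2s2, a subunit of the factor that brings the initiator tRNA, was lower at -0.27 ± 0.11 (SE, adjusted p = 0.387), all by edgeR's quasi-likelihood test.

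Ribosome biogenesis genes had a median of 0.02 with 23 of 41 positive. At an unadjusted p under 0.05, 2 of the 41 were higher, against 4.65% of all genes. These were Rrp9 (0.20) and Utp15 (0.31), both of the particle that processes small-subunit RNA. Nop56, a core box C/D particle protein, was lower at -0.25. RNA polymerase I genes had a median of -0.01 with 8 of 15 negative. Polr1b, its second-largest subunit, lay at 37.8 ± 2.47 CPM (SD, n = 6) with Arf6Q67L and 29.1 ± 2.25 CPM without it (SD, n = 4), which was higher by 0.38 ± 0.09 on the log2 scale (SE, adjusted p = 0.233 in edgeR's quasi-likelihood test, 0.00167 in DESeq2). Rrn3, the initiation factor of this polymerase, was higher by 0.22 ± 0.07 (SE, adjusted p = 0.341 in edgeR's quasi-likelihood test). In the mTORC1 and MYC list 0 of 21 passed and the median was 0.08, with Max, the dimer partner of MYC, at -0.28 ± 0.10 (SE, adjusted p = 0.364 in the same test).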

How the data were processed

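The authors deposited raw counts in 1 table of 52636 Ensembl mouse gene identifiers, with 1 column per tumour. RNA was prepared with a Qiagen RNeasy kit and libraries with a stranded polyA kit, per the labels' protocols. The submitters' processing notes list STAR 2.5.2b, featureCounts 1.5.1, DESeq2 1.18.0 and GRCm38 without a role for each. Strand setting and treatment of reads with several matches: not given in the sources used here. All 10 columns matched a sample's library identifier, groups came from the genotype label, and tumours were numbered in accession order, which pairs none.

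Symbols and positions came from GENCODE vM21 for GRCm38 (99.7% of identifiers matched). Genes were tested with edgeR 4.0.16 (R 4.3.3; TMM scaling, robust glmQLFit, glmQLFTest on genotype, genes kept by filterByExpr at a minimum count of 10), with Benjamini-Hochberg adjustment over 17286 genes and a threshold of 0.05. The SE was derived from the fold change and the F statistic (their ratio after taking the root of F), and CPM uses TMM library sizes. DESeq2 1.42.0 and limma 3.58.1 (voom with quality weights) were alternatives, with other scalings, no low-count filter, marker scores as terms and each tumour left out. On simulated counts with 17286 genes for this comparison, edgeR recovered 34% of 100 genes changed 2-fold and 76% of 100 changed 4-fold, with 7 false calls, and DESeq2 59% and 89% with 63. Copies were found with BLAST 2.17.0.

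Named members are the stalk genes and Rpsa, paralogues with their parents, those of lowest p in each direction, of extreme level, spread or correlation, and textbook members, with exceptions stated. The members and lists were chosen with earlier results of these data known.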

Additional observations from a re-analysis of the deposited data

Results flagged for a closer look

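Among 80 groups of 4 or 6 tumours examined for a single tumour far from the others, by Dixon's test at its 95% critical value, 3 stood out. Chance flags about 1 in 20 groups. Rps23 was at 1380 CPM in Arf6Q67L tumour 3, against 475 to 812 CPM in the other 5 of its group. Rpl23a was at 488 CPM in the same tumour, against 231 to 325 CPM in the other 5. Rps27l was at 158 CPM in control 4, against 120 to 126 CPM in the other 3 controls.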

How the results depend on the processing

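No paired analysis was possible because the labels carry no replicate numbers. The count of members past the edgeR threshold was 0 in every alternative fit but DESeq2 (1). The count lower at an unadjusted p under 0.05 (6) was 3 with library size only (5.54% of all genes), 13 with limma-voom (7.33%), 19 with the muscle score (9.19%), 1 with the T cell score (3.38%) and 1 without Arf6Q67L tumours 1 and 2 (3.57%). It was 1 to 15 with 1 tumour left out: 15 without Arf6Q67L tumour 3 (7.26% of all genes), 13 without tumour 5 (7.05%), 2 without tumour 1 (5.32%), 2 (5.19%) or 6 (5.55%) or control 3 (7.48%), and 1 without control 4 (4.33%). The count higher (1) was 2 with limma-voom and with copies added, 0 with either score and without Arf6Q67L tumours 1 and 2, and 0 to 1 with 1 tumour left out. The cause of these moves was not tested. Leaving out the 5 uneven members (Rpl29, Rpl35a, Rps2, Rps23 and Rpl23a) left 3 lower and 0 higher, because 4 of the calls were among them. The 5 uneven members, the added copies and tumours 1 and 2 were settings chosen after seeing the data. The median log2 fold change was -0.22 to -0.10 with 1 tumour left out, -0.18 to -0.12 under the other scalings and tests, and -0.16 without the 5 uneven members.

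Some log2 fold changes near 0 turned positive. With library size only Rplp0 was 0.0129 and Rpl3 0.0115, and with the T cell score Rpl3 was 0.0195, Rpl39 0.0464 and Rps19 0.0301. Rpl3l was -0.0876 with the muscle score. With 1 tumour left out Rplp0 was -0.0913 to 0.0189, Rpl3 -0.0744 to 0.0290 and Rps19 -0.140 to 0.0141. Without Arf6Q67L tumours 1 and 2, Rplp0 was 0.0856, Rplp1 0.0481, Rpl3 0.0808, Rpl39 0.0446, Rps15 0.0680, Rpl5 0.0388, Rps19 0.0932, Rps14 0.0181 and Rps23 0.107. The log2 ratio of Rpl36al to Rpl36a, -0.01, was 0.0972 with a pseudocount of 2 and -0.156 to 0.0767 with 1 tumour left out, and that of Rps4l to Rps4x, 0.25, was -0.380 to 0.916.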
